A study of Mus musculus with 30 samples.

Results

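The genes of the endoplasmic reticulum (ER) stress response and of its ATF4 arm were followed in mouse liver. They are 34 genes, chosen by symbol, among the 55335 genes of the count table. They comprise 9 chaperones and co-chaperones, 2 lectin chaperones, 3 protein disulfide isomerases, 7 genes of ER-associated degradation, 3 of the translocon and of COPII vesicles, 5 sensors and transcription factors, and 5 genes of the ATF4 and CHOP arm. All 34 passed the filter on low counts in each of the 11 comparisons.

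The study asked how a cysteine sensor of KEAP1 shapes the hepatic response to CDDO-Me (bardoxolone methyl), a synthetic triterpenoid that activates the transcription factor NRF2. Livers came from 30 male mice, 7 to 10 weeks old and all on the albino C57BL/6J background, with 5 mice in each of 6 groups and 1 poly(A) RNA library per mouse. Wild-type mice, homozygous C151S mice (knock-in mice whose KEAP1 has a serine in place of 1 cysteine), and homozygous Nrf2-knockout mice each received either vehicle (DMSO, Cremophor-EL, and PBS) or CDDO-Me at 30 µmol/kg in that vehicle, by mouth, in 1 dose, and tissue was taken 24 hours later. Wild-type mice were bought, whereas both mutants were bred from homozygous parents, so that genotype and colony cannot be told apart. Both mutations are carried in every cell of the mouse. Different mice gave the 5 libraries of a group, so that their spread is that between animals.

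Secreted and membrane proteins fold in the lumen of the ER, where chaperones such as HSPA5 (BiP) hold unfolded chains. When unfolded protein accumulates, the sensors IRE1 (Ern1), PERK (Eif2ak3), and ATF6 activate the unfolded protein response. IRE1 splices the Xbp1 message, cleaved ATF6 enters the nucleus, and both raise chaperones and degradation genes through the ER stress response element (ERSE) of their promoters. PERK phosphorylates eIF2α, which slows translation yet favors that of ATF4, whose targets serve amino acid supply and include the gene for CHOP (Ddit3). Hepatocytes secrete most plasma proteins and carry a large ER.

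The ERSE consists of CCAAT and CCACG parted by 9 bases, and its short form, ERSE-II, of ATTGG and CCACG parted by 1 base. The windows from 250 bases before to 50 bases after the start site were taken from RefSeq (GRCm38.p6), and 29 of the 34 genes had 1 there. Both strands were read. An ERSE stood in the windows of 9 of these 29 genes (31%) and in 0.137% of the 27025 genes with a window. The 34 genes were chosen as genes of the ER stress response, and the 27025 genes include these 29. The shares are therefore a description and not a test. All 9 genes with an ERSE were lower in vehicle-treated C151S than in wild-type mice, and 8 of them passed the test given below. The sites are shown for this reason. Each is written in the direction of the element, with its fixed letters in capitals.
Hspa5: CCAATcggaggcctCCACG
Hsp90b1, near site: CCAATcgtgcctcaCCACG
Hsp90b1, far site: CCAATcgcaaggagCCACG
Dnajc3: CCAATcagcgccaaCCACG
Creld2: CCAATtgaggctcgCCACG
Calr: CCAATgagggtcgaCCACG
Canx: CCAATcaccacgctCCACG
Pdia6: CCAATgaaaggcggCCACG
Derl3: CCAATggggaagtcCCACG
Syvn1: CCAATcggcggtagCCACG
Herpud1, ERSE-II: ATTGGgCCACG
Dnajb11, ERSE-II: ATTGGcCCACG
The site of Hspa5 lay at chr2:34772025-34772043, 65 to 47 bases before the start site and on the plus strand. That of Creld2 lay at chr15:88819520-88819538 on the minus strand, 126 to 108 bases before the start, and that of Derl3 at chr10:75893242-75893260 on the minus strand, 156 to 138 bases before the start. Those of Hsp90b1 were at chr10:86705533-86705551 on the plus strand and at chr10:86705638-86705656 on the minus strand. The others were at chr14:118937827-118937845 (Dnajc3, plus), chr8:84847075-84847093 (Calr, plus), chr11:50325800-50325818 (Canx, minus), chr12:17266491-17266509 (Pdia6, plus), and chr19:6046532-6046550 (Syvn1, plus). The ERSE-II of Herpud1 was at chr8:94386377-94386387 (plus), and that of Dnajb11, at chr16:22857852-22857862 (plus), began 7 bases after the start site.

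ERSE-II was found in 2 of the 29 windows (6.9%) and in 0.0444% of all genes. The CCACG letters alone, which every ERSE and ERSE-II also holds, were in 79.3% of the members' windows and in 35.5% of all. The core of the XBP1 element, TGACGTG, was in 2 windows (6.9%) against 2.22% of all. The element that ATF4 binds with a CEBP partner (CARE, TGATGNAA) was found in 4 windows (13.8%) against 4.51% of all, those of Chac1, Trib3, Asns, and Herpud1, and is shown for these because 3 of them belong to the ATF4 arm.
Chac1: TGATGcAA
Trib3: TGATGtAA
Asns: TGATGaAA
Herpud1: TGATGcAA
The Chac1 letters were at chr2:119351049-119351056 (minus), those of Trib3 at chr2:152344039-152344046 (plus), those of Asns at chr6:7693225-7693232 (minus), and those of Herpud1 at chr8:94386317-94386324 (minus). A match of letters is a description and not evidence of binding.

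The libraries held 23667068 to 42073169 counts on genes, and the lowest count of any of the 34 genes in any library was 10. Values are given as CPM, counts scaled to a common library size after correction by the trimmed mean of M values. Nfe2l2, which encodes NRF2, was at 66.1 ± 4.15 CPM (SD, n = 5) in vehicle-treated wild-type mice and at 35.1 ± 4.54 CPM in vehicle-treated Nrf2-knockout mice, and the ranges of the knockout groups lay below those of all other groups. The 7 hepatocyte markers summed to between 73869 and 157191 CPM in the 30 libraries, whereas the 8 markers of pancreatic acinar cells, another cell type rich in ER, summed to 0.0992 to 1.39 CPM. Libraries parted into 2 sets by Arntl, a gene of the circadian clock. It was at -1.15 to 0.90 log2 CPM in 11 libraries (5 of 10 C151S and 6 of 10 Nrf2-knockout) and at 2.52 to 4.79 in the other 19, which include all 10 wild-type libraries. Results below are given within these sets where that changes a call. In whole liver, fewer cells of a type and less RNA per cell cannot be told apart.

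Levels differed widely among the 34 genes. Per kilobase of exon, Calr, encoding the calcium-binding lectin chaperone calreticulin, stood highest in vehicle-treated wild-type mice at 347 ± 44.1 RPKM (SD, n = 5). Hspa5, the ER member of the HSP70 family, and Hsp90b1, the ER member of the HSP90 family (GRP94), followed at 335 ± 64.4 and 311 ± 36.8 RPKM, so that these 3 did not differ beyond their spread. The protein disulfide isomerase Pdia3 (185 ± 22.4) and Herpud1 (158 ± 40), a membrane protein that assembles the degradation complex, came next and lay within their spread of each other. At the low end were Eif2ak3 (2.82 ± 0.425), Ddit3 (2.28 ± 0.208), and Chac1 (1.55 ± 0.5), whose product degrades glutathione. The ATF4 arm thus ran at low levels, from 1.55 RPKM for Chac1 to 5.09 RPKM for Ppp1r15a, in livers that had received vehicle only.

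Most of the genes that passed a test did so between the genotypes in mice given vehicle. In C151S mice 16 of the 34 genes passed the test against wild type (false discovery rate [FDR] under 0.05 over all genes tested and a log2 fold change of 0.5 or more in size), and all 16 were lower, whereas 4.84% of all 13946 genes tested passed and 2.25% passed and were lower. In Nrf2-knockout mice 15 of the 34 genes passed, all lower, against 10.4% of 14030 genes that passed and 4.13% that passed and were lower. The median log2 fold change of the 34 genes was -0.45 in C151S mice and -0.51 in Nrf2-knockout mice, and that of all genes tested was 0.0125 and 0.0092. In C151S mice 19 of the 34 genes had every mutant library below every wild-type library, against 5.65% of all genes. In Nrf2-knockout mice 21 did, against 7.21%. These 2 comparisons share their wild-type libraries, and so are not independent of each other. The 34 genes were chosen with earlier results of these data known, so that the shares are a description and not a test of the set. The log2 fold changes below are given ± SE, are log2 of mutant over wild type, and carry the FDR of edgeR's quasi-likelihood test.

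Of the 9 chaperones and co-chaperones, 8 passed and were lower with vehicle in each mutant, and Dnajb9 did not pass in either. Hspa5 had 1226, 1855, 1217, 1275, and 1505 CPM in the 5 vehicle-treated wild-type mice. In C151S mice it had 544, 404, 485, 719, and 596 CPM, and in Nrf2-knockout mice 621, 789.6, 569, 645, and 440.2 CPM. No mutant mouse reached the lowest wild-type mouse, and the log2 fold change was -1.36 ± 0.16 (FDR = 0.00113) in C151S mice and -1.19 ± 0.16 (FDR = 0.00129) in Nrf2-knockout mice. Hsp90b1 had 1118, 1401, 1244, 1101, and 1410 CPM in wild-type mice. C151S mice had 703, 568, 661, 742, and 701 CPM and Nrf2-knockout mice had 664, 779, 750.2, 787, and 649.8 CPM. All 10 mutant mice again lay below all 5 wild-type mice, with log2 fold changes of -0.88 ± 0.10 (FDR = 0.00104) and -0.77 ± 0.11 (FDR = 0.00134). Hyou1, which encodes the nucleotide exchange factor GRP170 of HSPA5, had 298, 421, 279.8, 277, and 353 CPM in wild-type mice. Its values were 83.4, 58.9, 84.7, 143, and 100 CPM in C151S mice and 104, 149.6, 83.8, 96.7, and 90.1 CPM in Nrf2-knockout mice. The highest of these mutant values, in Nrf2-knockout mouse 2, was well under the lowest wild-type value, and the log2 fold changes were -1.78 ± 0.21 (FDR = 0.00104) and -1.62 ± 0.17 (FDR = 0.000294).

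The J-domain and other cofactors of HSPA5 were lower as well. Dnajb11 (ERdj3), which brings unfolded chains to HSPA5, had 99.1, 140, 119, 111, and 134 CPM in wild-type mice. It had 62.7, 47.7, 60.1, 64.0, and 69.4 CPM in C151S mice and 78.0, 80.7, 67.9, 69.9, and 68.5 CPM in Nrf2-knockout mice. The groups did not overlap, and the log2 fold changes were -0.98 ± 0.12 (FDR = 0.00111) and -0.71 ± 0.10 (FDR = 0.00148). Dnajc3, encoding the P58IPK co-chaperone, had 247, 298, 294, 279.7, and 331 CPM in wild-type mice. Its values in C151S mice were 176, 144, 166, 216, and 191 CPM and in Nrf2-knockout mice 169, 171, 155, 169.5, and 137 CPM. Every mutant mouse was lower than every wild-type mouse, with log2 fold changes of -0.69 ± 0.11 (FDR = 0.00395) and -0.84 ± 0.10 (FDR = 0.000434). Sdf2l1, a partner of Dnajb11, had 31.0, 59.5, 45.5, 41.0, and 58.4 CPM in wild-type mice. With vehicle it had 18.6, 9.85, 14.4, 13.3, and 14.0 CPM in C151S mice and 15.2, 21.5, 18.6, 16.3, and 15.7 CPM in Nrf2-knockout mice. The ranges were apart, and the log2 fold changes were -1.73 ± 0.20 (FDR = 0.00104) and -1.41 ± 0.17 (FDR = 0.000699). Dnajb9 (ERdj4), a cofactor that feeds clients to degradation, differed by 0.16 ± 0.34 (FDR = 0.807) and -0.29 ± 0.16 (FDR = 0.214).

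Manf and Creld2, which encode small proteins that are released on ER stress, were among the genes with the largest differences. Manf had 114, 188, 122, 118, and 145 CPM in wild-type mice. It had 48.4, 27.8, 40.4, 68.0, and 57.4 CPM in C151S mice and 52.1, 73.6, 50.4, 44.5, and 39.9 CPM in Nrf2-knockout mice. No mutant mouse reached the wild-type range, and the log2 fold changes were -1.5 ± 0.22 (FDR = 0.00307) and -1.38 ± 0.18 (FDR = 0.000915). Creld2 had 65.1, 122, 83.8, 74.3, and 125 CPM in wild-type mice. In C151S mice its values were 14.7, 10.5, 13.9, 31.8, and 17.4 CPM and in Nrf2-knockout mice 18.5, 33.8, 20.5, 17.4, and 15.4 CPM. C151S mouse 4 and Nrf2-knockout mouse 2 were the highest of their groups and yet stood under every wild-type mouse, with log2 fold changes of -2.41 ± 0.29 (FDR = 0.00113) and -2.13 ± 0.24 (FDR = 0.000421).

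**Figure D1:**
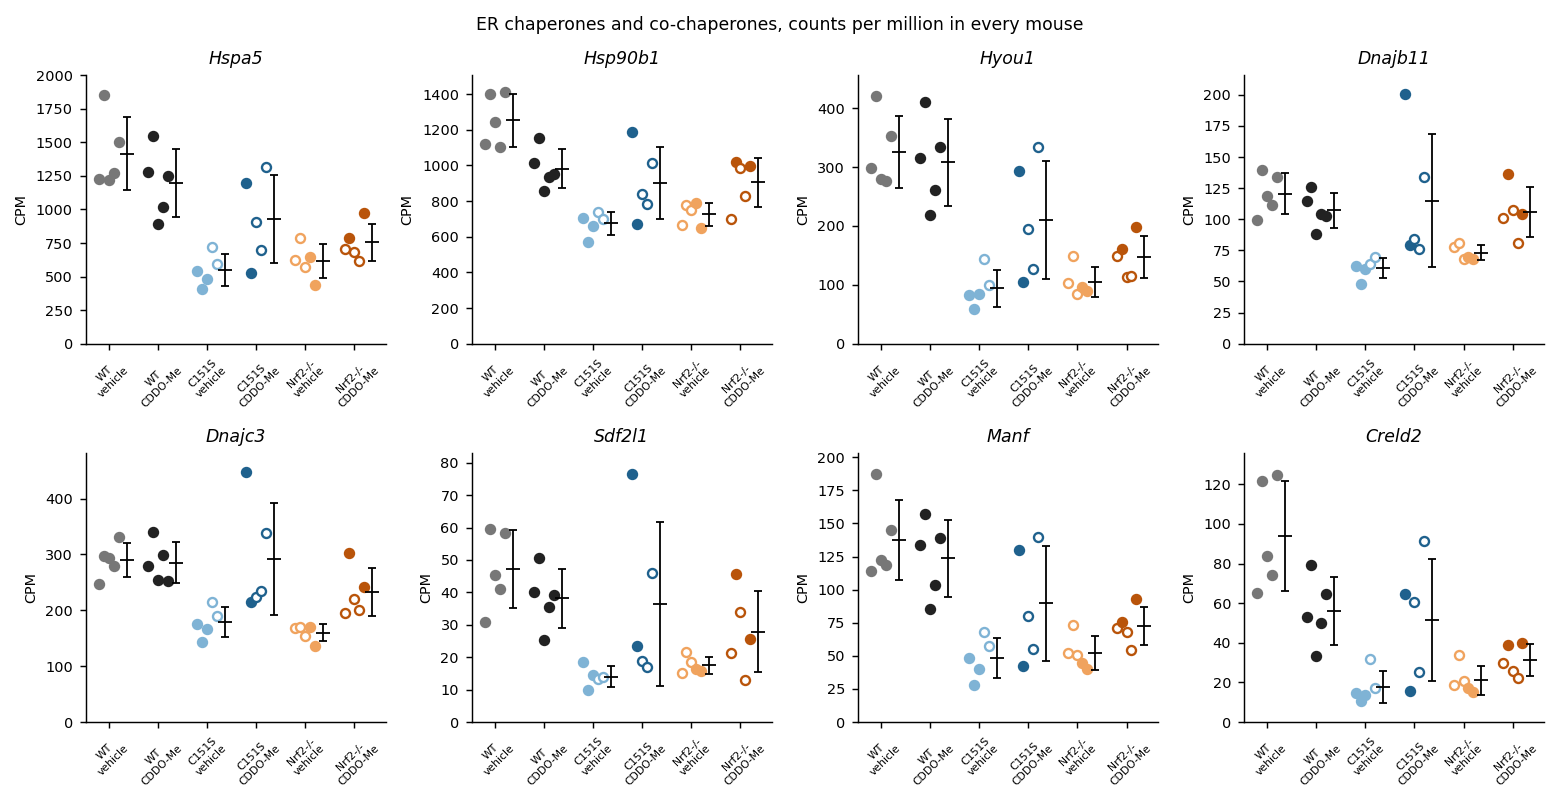
Normalized counts (CPM; vertical axes, from 0) of 8 chaperone and co-chaperone genes in each of the 30 mice, by genotype and treatment on the horizontal axis; open points are libraries on the low side of the Arntl gap, and the black bars are the mean ± SD of 5 mice. With vehicle, both mutant groups sit under the wild-type mice in every panel (Hspa5 at 549 ± 118 and 613 ± 127 against 1416 ± 272 CPM), and after CDDO-Me the C151S mice spread widely (Hspa5 at 526 to 1314 CPM).

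Among genes of ER-associated degradation the differences were uneven. Derl3, encoding a Derlin of the channel through which misfolded proteins leave the ER, had 4.87, 7.27, 10.4, 3.77, and 15.8 CPM in vehicle-treated wild-type mice. It had 1.16, 0.778, 0.255, 0.52, and 1.18 CPM in C151S mice and 0.829, 2.65, 1.19, 0.627, and 0.876 CPM in Nrf2-knockout mice. The ranges did not overlap, and its log2 fold changes, -3.42 ± 0.46 (FDR = 0.00243) and -2.73 ± 0.46 (FDR = 0.00365), were the largest of the 34 genes in both mutants. These values rest on few reads, down to 10 counts in a library. Its relatives Derl1 and Derl2 differed by -0.26 ± 0.08 (FDR = 0.0688) and -0.28 ± 0.10 (FDR = 0.095) in C151S mice. Syvn1, the ubiquitin ligase HRD1, was lower in C151S mice at -0.90 ± 0.25 with an FDR of 0.0498, just under the threshold, and it missed the threshold in 13 of 19 alternative fits. In Nrf2-knockout mice Syvn1 differed by -0.74 ± 0.27 (FDR = 0.0804). Edem1, a lectin that picks out misfolded glycoproteins, was lower in Nrf2-knockout mice at -0.57 ± 0.10 (FDR = 0.0037), and its value in C151S mice, -0.42 ± 0.07 (FDR = 0.00763), was under the limit of size. Sel1l, the partner of HRD1, likewise had an FDR under the threshold in both mutants and differed by -0.42 ± 0.07 (FDR = 0.00535) and -0.42 ± 0.10 (FDR = 0.0152), short of 0.5. Herpud1 was the gene of this group with a positive value in both mutants, described below.

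All 3 disulfide isomerases were lower in both mutants. Pdia6 had 318, 426, 360.3, 359, and 395 CPM in vehicle-treated wild-type mice. It had 253, 196, 212, 222, and 242 CPM in C151S mice and 245, 292, 246, 253, and 232 CPM in Nrf2-knockout mice. All 10 mutant mice lay below the 5 wild-type mice, at -0.71 ± 0.10 (FDR = 0.00251) and -0.53 ± 0.10 (FDR = 0.00535). Pdia4 differed by -0.86 ± 0.13 and -0.72 ± 0.12, and Pdia3, the partner of the lectin chaperones, by -0.61 ± 0.10 and -0.52 ± 0.10. Of the lectin chaperones, Calr was lower in C151S mice at -0.58 ± 0.14 (FDR = 0.026) and did not reach the limit of size in Nrf2-knockout mice at -0.35 ± 0.11 (FDR = 0.0499). Its membrane-bound relative Canx differed by -0.32 ± 0.08 and -0.32 ± 0.09, under the limit in both. Sec24d, a COPII coat subunit that loads cargo at ER exit sites, had 99.8, 109, 96.4, 98.9, and 105 CPM in wild-type mice. It had 56.9, 48.9, 56.0, 64.2, and 58.6 CPM in C151S mice and 58.0, 72.0, 50.4, 46.3, and 52.1 CPM in Nrf2-knockout mice. The wild-type values lay close together, no mutant mouse reached them, and of the 34 genes Sec24d had the lowest p in C151S mice, with -0.82 ± 0.07 (FDR = 0.000259) and -0.85 ± 0.11 (FDR = 0.000796). The translocon subunits Sec61a1 and Sec61b did not reach the limit of size in either mutant and ranged from -0.38 to -0.47 in C151S mice and from -0.37 to -0.47 in Nrf2-knockout mice.

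Of the 5 sensors and transcription factors, Atf4 passed in both mutants and the other 4 in neither. The log2 fold changes of the 3 sensors Ern1, Atf6, and Eif2ak3 lay between -0.31 and 0.33. Xbp1, whose total message was counted without regard to splicing, had 206, 212, 195, 175, and 246 CPM in wild-type mice. It had 185, 199.8, 148, 206, and 195 CPM in C151S mice and 238, 249, 232, 129, and 185 CPM in Nrf2-knockout mice. The 3 groups overlapped, and the log2 fold changes were -0.14 ± 0.11 (FDR = 0.447) and 0.01 ± 0.16 (FDR = 0.962). Atf4 had 119, 108, 95.2, 116, and 103 CPM in wild-type mice. It had 70.6, 80.1, 62.8, 84.7, and 72.4 CPM in C151S mice and 83.9, 63.1, 48.2, 59.8, and 95.0 CPM in Nrf2-knockout mice. Nrf2-knockout mouse 5, the highest mutant mouse, was level with the lowest wild-type mouse but below it, and the log2 fold changes were -0.53 ± 0.09 (FDR = 0.00637) and -0.61 ± 0.16 (FDR = 0.0233).

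**Figure D2:**
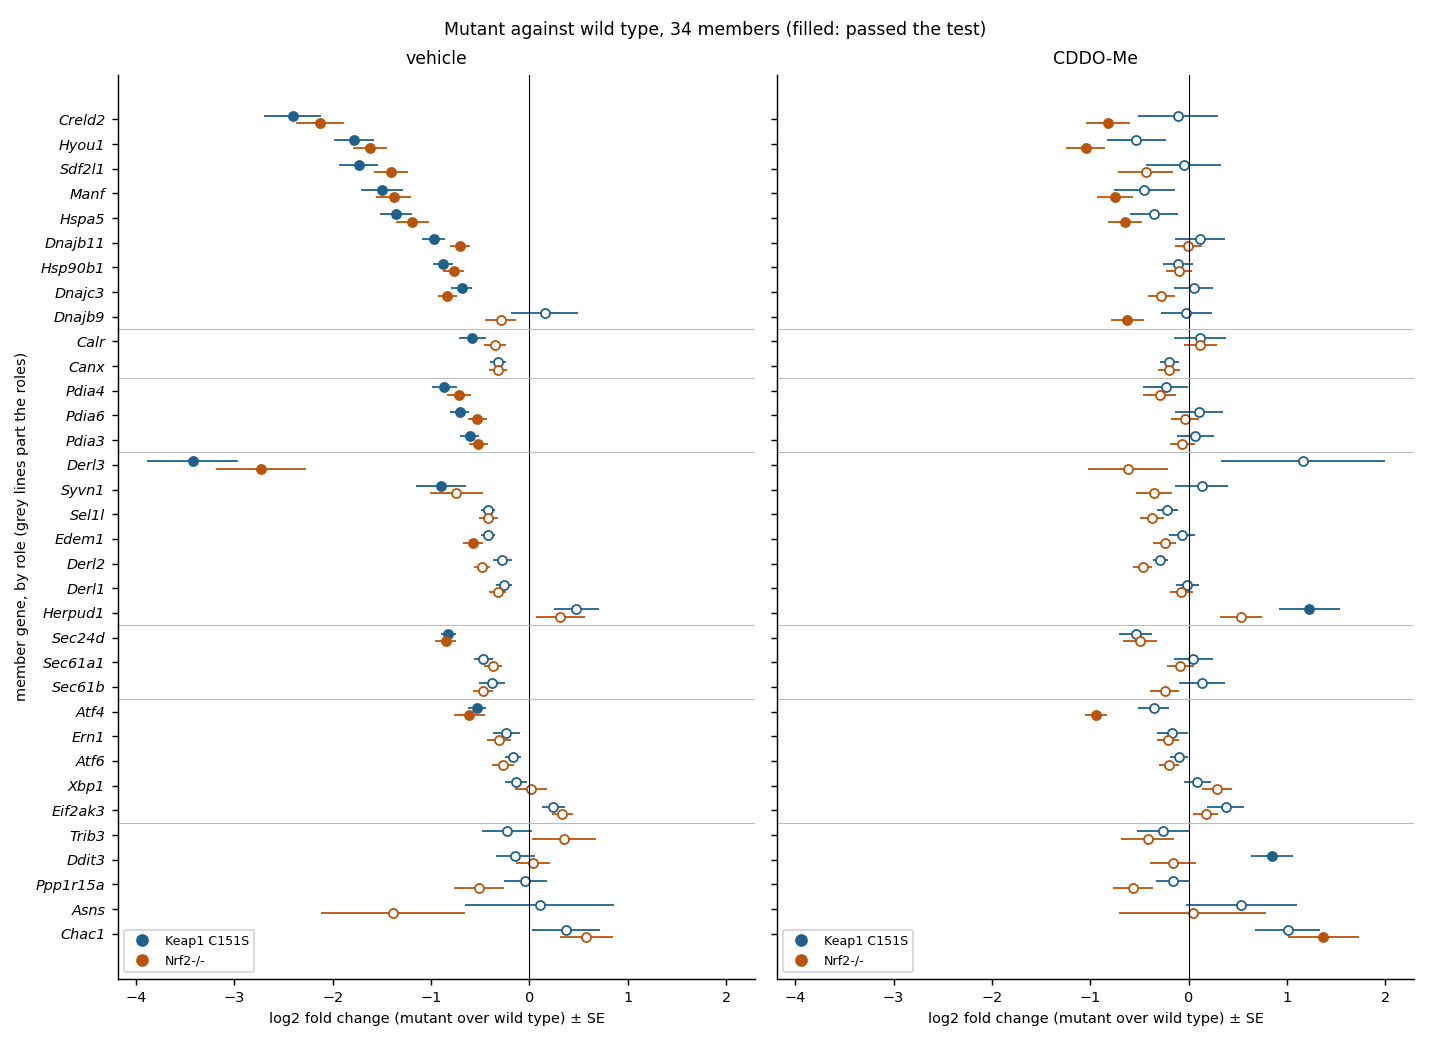
Log2 fold change of mutant over wild type ± SE (horizontal axis) for the 34 genes, grouped by role, in vehicle-treated mice (left) and CDDO-Me-treated mice (right), with 5 mice per group; filled points passed the test. With vehicle the filled points, 16 for C151S and 15 for Nrf2-knockout mice, are all left of 0, and after CDDO-Me the points of the C151S mice lie on both sides of 0, with a median of -0.04.

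Leaving out each mouse in turn, the vehicle comparisons gave 14 to 16 genes in C151S mice and 13 to 16 in Nrf2-knockout mice, all lower. With only the libraries on the high side of the Arntl gap, 17 genes passed in each mutant, again all lower, where 14.2% of all genes passed in C151S and 8.08% in Nrf2-knockout mice. These fits rest on 3 C151S and 2 Nrf2-knockout mice against 5 wild-type mice. The calls of Calr, Atf4, and Syvn1 in C151S mice and of Pdia3, Edem1, Pdia6, and Atf4 in Nrf2-knockout mice were lost in at least 1 of 19 alternatives, and the others held in all 19. Of the markers of other cell types, 2 of plasma cells, which also hold a large ER, moved the other way, with Jchain at 1.15 ± 0.25 and 1.70 ± 0.31 and Igkc at 1.29 ± 0.23 and 1.92 ± 0.26, all passing. The other 3 tested markers of B and plasma cells did not pass in either mutant. The 5 together had medians of 0.26 and 0.17, and the lowest values were -1.02 and -0.48. The 7 markers of B and plasma cells summed to 13.3 to 28.2 CPM in vehicle-treated wild-type, 14.8 to 28.0 CPM in C151S, and 17.5 to 37.6 CPM in Nrf2-knockout mice. The endothelial markers Stab2, Lyve1, and Pecam1 were higher in Nrf2-knockout mice (0.78, 1.59, and 0.69), and all 5 summed to 182 to 285 CPM there and to 144 to 171 CPM in wild-type mice. The hepatocyte sums were 115177 to 128257 CPM in Nrf2-knockout, 115504 to 139989 CPM in C151S, and 99518 to 119254 CPM in wild-type mice. Spp1 of cholangiocytes was lower in C151S mice (-0.83), Colec11 of stellate cells and Cela2a, the only acinar marker tested, were higher in Nrf2-knockout mice (0.61 and 1.19), and no hepatocyte or Kupffer cell marker passed. The part of cell makeup in the differences of the 34 genes was not tested.

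The differences were also sorted by promoter sequence. The 9 genes with an ERSE in the window were at a median of -0.88 in C151S mice, from -3.42 to -0.32, and 8 of them passed, the exception being Canx. The 20 with a window but no ERSE were at a median of -0.26, from -1.73 to 0.48, and 6 passed. In Nrf2-knockout mice the medians were -0.77 and -0.48, and 6 of 9 and 7 of 20 passed. Hyou1 and Manf, both of which passed in each mutant, had no window and were not searched. Sdf2l1 passed with no ERSE or ERSE-II and Dnajb11 with an ERSE-II. No test was made of this split.

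**Figure D3:**
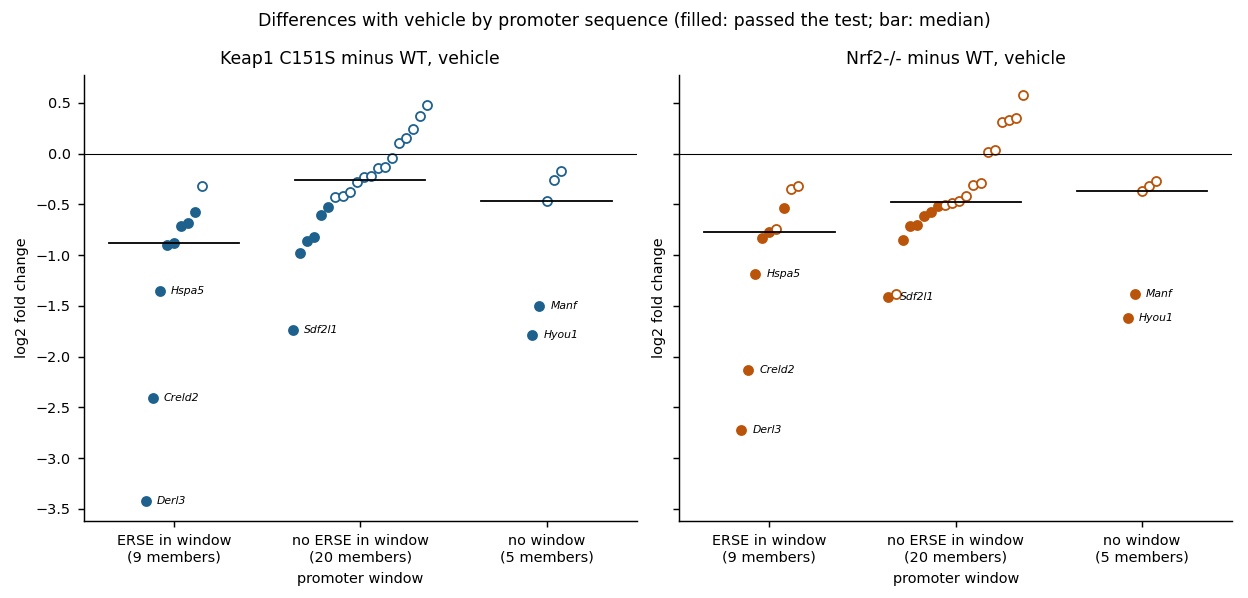
Log2 fold change of mutant over wild type with vehicle (vertical axis) for the 34 genes, parted by whether the promoter window holds an ERSE (horizontal axis), for C151S mice (left) and Nrf2-knockout mice (right); filled points passed the test, bars are medians, and the genes farthest below 0 that passed are named. The 9 genes with an ERSE reach from -3.42 (Derl3) to -0.32 (Canx) in C151S mice, and the 20 without it include all the values above 0.

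The mutants were next compared with each other. With vehicle, none of the 34 genes passed between C151S and Nrf2-knockout mice by edgeR, where 0.349% of 14323 genes passed. An unadjusted p under 0.05 was found for 2 of the 34 genes, a smaller share than the 11.3% of all genes, and DESeq2 called 1 (Asns) and 1.26% of all genes. Log2 fold changes of C151S over Nrf2-knockout mice ranged from -0.68 (Derl3) to 1.51 (Asns), with a median of -0.09. Hspa5 differed by -0.16 ± 0.17 (FDR = 0.764) and Creld2 by -0.27 ± 0.29 (FDR = 0.768). A test that misses its threshold does not show that the mutants are alike.

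With CDDO-Me in wild-type mice none of the 34 genes passed by edgeR, against 2.75% of 13697 genes. At an unadjusted p under 0.05 there were 5, no larger a share than the 17% of all genes. DESeq2 called 2, Dnajb9 and Creld2, and 3.86% of all genes. The median log2 fold change of CDDO-Me over vehicle was -0.05. Hspa5 had 1282, 1548, 894, 1016, and 1246 CPM after CDDO-Me, -0.25 ± 0.16 on the log2 scale (FDR = 0.48), and the treated and untreated mice overlapped. Creld2 had 52.9, 79.1, 33.2, 50, and 64.6 CPM, of which only mouse 2 reached the vehicle range, at -0.75 ± 0.23 (FDR = 0.0934). Hsp90b1 had 1015, 1153, 858, 937, and 949.6 CPM, with only mouse 2 in the vehicle range, at -0.36 ± 0.10 (FDR = 0.075). In the other direction, every treated mouse was above every vehicle mouse for Dnajb9, at 0.59 ± 0.16 (FDR = 0.0586), and for none of the other members, where 3.38% of all genes had this order. Dnajb9 passed without wild-type vehicle mouse 2 or wild-type CDDO-Me mouse 5. Atf4 had 128, 122, 142, 139, and 109 CPM, at 0.24 ± 0.08 (FDR = 0.152). Hyou1 had 315, 411, 218, 261, and 334 CPM after CDDO-Me, at -0.09 ± 0.17, which leaves it within its vehicle range but for mice 3 and 4. Xbp1 had 177, 220.4, 165, 175, and 203 CPM, at -0.14 ± 0.10, and overlapped its vehicle range. The NRF2 target Nqo1 in the same mice went from 7.20 ± 2.38 to 64.3 ± 25.0 CPM.

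In C151S mice the same dose went with higher values of most of these genes, without any passing the test. The vehicle-treated C151S libraries are those of the comparison with wild type above, so that the 2 comparisons are not independent. Of the 34 genes 31 had a positive log2 fold change, with a median of 0.46, whereas 49.1% of all genes were positive and their median was -0.0052. An unadjusted p under 0.05 was found for 19 of the 34 and for 13.7% of all genes. None passed by edgeR over all genes, where 0.092% of 14128 genes did, while DESeq2 called 4 (Hyou1, Derl3, Creld2, and Sdf2l1) and 0.708% of all genes. A single fit of all 30 libraries called 2 (Derl3 and Dnajb11) and 0.227% of all genes. The treated mice were uneven. Hspa5 had 1195, 526, 909, 698, and 1314 CPM, so that mice 1, 3, and 5 were within the range of treated wild-type mice and mice 2 and 4 within that of vehicle-treated C151S mice, at 0.75 ± 0.24 (FDR = 0.347). Creld2 had 64.5, 15.5, 60.5, 25.4, and 91.1 CPM, at 1.54 ± 0.45 (FDR = 0.334). Mice 2 and 4 again lay within the vehicle range. Derl3 had 51.2, 5.43, 1.35, 1.61, and 14.5 CPM, at 4.24 ± 1.00 (FDR = 0.282), and here all 5 treated mice were above the 5 vehicle mice. This held for 4 of the 34 genes (Derl3, Pdia3, Sel1l, and Dnajb11), where 0.856% of all genes had this order.

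Mice 1 and 5 were high in many of these genes. Mouse 1 had the highest value of its group in 16 of the 34 genes and mouse 5 in 11, with medians of 1.39 and 1.37 times the group median, and mouse 2 had the lowest in 18. Dnajb11 had 200.3, 79.3, 84.4, 76.1, and 134 CPM, at 0.91 ± 0.26 (FDR = 0.333). Dnajc3 had 448, 215, 224, 234, and 338 CPM, at 0.70 ± 0.20. Sdf2l1 had 76.5, 23.5, 18.9, 17.1, and 46.0 CPM, at 1.37 ± 0.39. In these 3 cofactors of HSPA5 mouse 1 exceeded every wild-type mouse of either treatment. Hyou1 had 293, 105, 195, 127, and 334 CPM, at 1.16 ± 0.33. Manf had 130.1, 42.6, 80.4, 54.9, and 139.7 CPM, at 0.88 ± 0.33. Hsp90b1 had 1186, 673, 842, 785, and 1016 CPM, at 0.41 ± 0.15. In these genes mice 1 and 5 were the highest, within the span of the 10 wild-type mice. Pdia6 had 649.8, 310.5, 239, 291, and 424 CPM, with mouse 1 above all wild-type mice. Sec24d had 81.6, 57.4, 54.4, 54.6, and 89.8 CPM, with no treated C151S mouse at the vehicle-treated wild-type level. Atf4 had 142, 75.4, 99.1, 81.0, and 95.9 CPM, at 0.41 ± 0.16. Of the transcription factors, mouse 1 was the highest of its group in Atf4 and in Xbp1, which had 261, 202, 188, 155, and 183 CPM. Mice 1 and 2 were on the high side of the Arntl gap and mice 3, 4, and 5 on the low side. The part of the Arntl sets in the spread of these 5 mice was not tested. Mouse 1 also had the lowest sum of hepatocyte markers of all 30 mice, 73869 CPM, and mouse 5 had 115755 CPM. The library of mouse 1 stood apart beyond these genes as well. Its mean chi-square per gene against the rest of its group was 396 to 590, where the others were 74.1 to 131 from each other. Without mouse 1 the median log2 fold change of the 34 genes was 0.34, and none passed.

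In Nrf2-knockout mice 27 of the 34 genes had a positive log2 fold change after CDDO-Me, with a median of 0.28, whereas 48.5% of all genes were positive and their median was -0.0073. This comparison likewise shares its vehicle-treated knockout libraries with the vehicle comparison against wild type, and is not independent of it. An unadjusted p under 0.05 was found for 15 of the 34 and for 7.85% of all genes. None passed by edgeR, and neither did any other gene (0% of 14474), while DESeq2 called 3 (Derl3, Dnajc3, and Dnajb11) and 0.359% of all genes. Dnajb11 had 101, 136, 107, 80.7, and 104 CPM, at 0.52 ± 0.12 (FDR = 0.514). Dnajc3 had 195, 302, 221, 201, and 242 CPM, at 0.52 ± 0.13 (FDR = 0.526). For these 2 co-chaperones, and for none of the other members, every treated knockout mouse was above every vehicle mouse (1.06% of all genes), though the highest vehicle mouse and the lowest treated mouse were level in Dnajb11. Hspa5 had 708, 790.4, 686, 615, and 971 CPM, at 0.29 ± 0.17 (FDR = 0.706), and overlapped the vehicle mice. Derl3 had 4.94, 9.0, 2.87, 2.12, and 2.57 CPM, at 1.77 ± 0.47 (FDR = 0.53), with vehicle mouse 2 inside the treated range. Creld2 had 30.0, 38.7, 25.6, 22.2, and 40 CPM, below every vehicle-treated wild-type mouse, at 0.55 ± 0.23 (FDR = 0.594). Manf had 71.4, 75.3, 68.1, 54.3, and 93.2 CPM, at 0.47 ± 0.18. Hyou1 had 149.5, 161, 113, 115, and 198 CPM, at 0.48 ± 0.19. Both stayed under the vehicle-treated wild-type mice. Sdf2l1 had 21.4, 45.6, 33.9, 13.0, and 25.6 CPM, at 0.66 ± 0.27, and overlapped the vehicle mice. Pdia6 had 320.4, 411, 401, 268, and 337 CPM, at 0.44 ± 0.13. Hsp90b1 had 700.5, 1018, 985, 828, and 996 CPM, at 0.31 ± 0.13. Sec24d, the COPII subunit, had 74.1, 93.2, 49.1, 53.0, and 78.9 CPM, at 0.31 ± 0.18. In Sdf2l1 and Pdia6 some treated knockout mice reached the vehicle range of wild-type mice, and in Hsp90b1 and Sec24d none did. Treated knockout mouse 2 had the highest value of its group in 16 of the 34 genes, and mouse 4 had the lowest in 16. Mouse 2 also had the lowest sum of hepatocyte markers of this group, 77860.5 CPM. Its library stood apart over the genes at large, with a mean chi-square per gene of 287 to 399 against the rest of its group. The others were 81.8 to 164 from each other. Xbp1 had 304, 208, 258, 202, and 163 CPM, at 0.12 ± 0.20, and overlapped the vehicle mice. The knockout groups each had 2 libraries on the high side of the Arntl gap and 3 on the low side. Mean Hspa5 went from 543 to 880 CPM on the high side and from 660 to 670 CPM on the low side. Hyou1 went from 93.4 to 180 CPM and from 112 to 126 CPM, and Dnajb11 from 69.2 to 120 CPM and from 75.5 to 96.1 CPM. Whether the response differs between the sides was not tested.

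**Figure D4:**
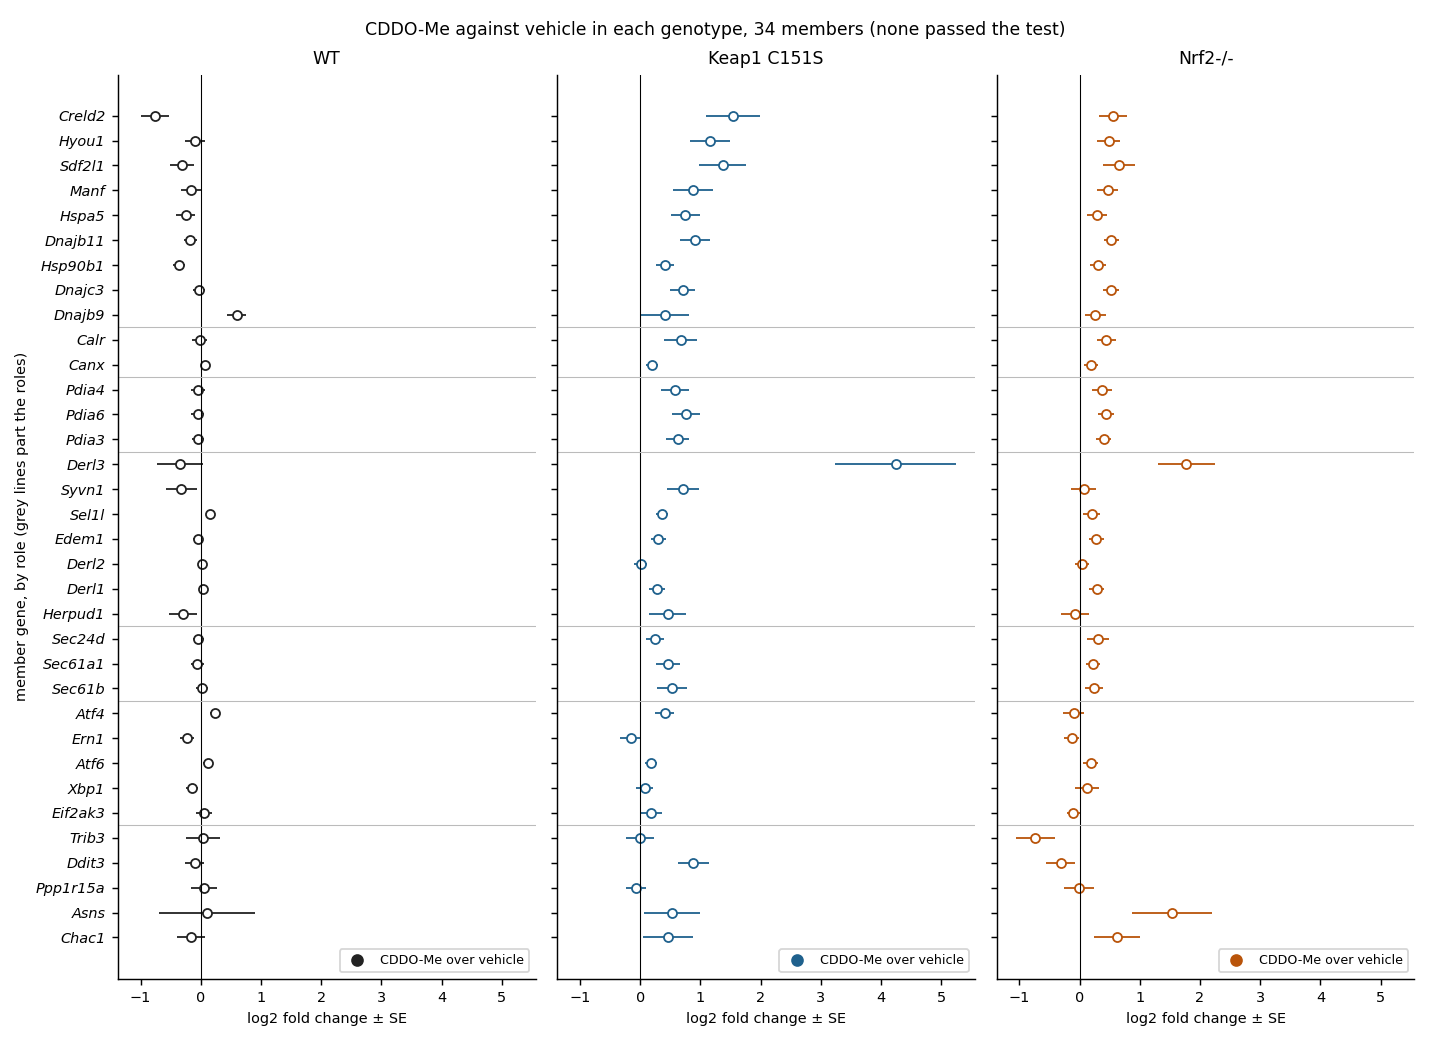
Log2 fold change of CDDO-Me over vehicle ± SE (horizontal axis) for the 34 genes in wild-type (left), C151S (middle), and Nrf2-knockout (right) mice, with 5 mice per group, genes ordered by role as in the plot of genotype differences. The medians are -0.05, 0.46, and 0.28, Derl3 in C151S mice is farthest from 0 at 4.24, and no gene passed the test in any genotype.

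The difference between the responses of wild-type and C151S mice was tested directly in 1 fit of all 30 libraries, without a limit of size. It passed for 2 of the 34 genes, where 0.48% of 15010 genes passed. The response of wild-type mice minus that of C151S mice was -4.59 ± 1.00 log2 units for Derl3 (FDR = 0.0257) and -2.29 ± 0.50 for Creld2 (FDR = 0.0249). Next came Hsp90b1 at -0.77 ± 0.19 (FDR = 0.0569) and Dnajb11 at -1.08 ± 0.27 (FDR = 0.0731), which did not pass. The sign was negative for 30 of the 34 genes. These 2 calls were sensitive to single mice. Neither gene passed without C151S vehicle mouse 2 or 3, C151S CDDO-Me mouse 1, wild-type CDDO-Me mouse 3 or 4, or wild-type vehicle mouse 5. Only 1 passed without C151S vehicle mouse 1, C151S CDDO-Me mouse 5, or wild-type CDDO-Me mouse 1 or 5, whereas 5 genes passed without C151S CDDO-Me mouse 2. Between wild-type and Nrf2-knockout responses no gene of the 34 passed by edgeR (0.266% of 15010 genes did) or by DESeq2 (0.566%). An unadjusted p under 0.05 was found for 7, a larger share than the 6.28% of all genes. The lowest FDR there was that of Hsp90b1, 0.18, at -0.67 ± 0.19.

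The genotypes were also compared after CDDO-Me. Between C151S and wild-type mice 2 of the 34 genes passed, both higher in C151S mice, where 5% of 13844 genes passed and 2.2% passed and were higher. They were Herpud1 at 1.23 ± 0.31 (FDR = 0.0368) and Ddit3 at 0.85 ± 0.22 (FDR = 0.0386). Hspa5 differed by -0.35 ± 0.24 (FDR = 0.39), Creld2 by -0.11 ± 0.40 (FDR = 0.891), and Derl3 by 1.17 ± 0.83 (FDR = 0.406). The median of the 34 genes was -0.04. Among the markers, Jchain (1.45), Igkc (1.5), and Tat (1.06) were higher and Marco (-1.13) was lower. The 5 tested markers of B and plasma cells had a median of -0.48, the 7 of hepatocytes 0.27, and the 6 of Kupffer cells 0.14. The calls of Herpud1 and Ddit3 depended on the libraries. Leaving out 1 mouse gave 0 genes in 6 of 10 cases (C151S CDDO-Me mouse 3 or 4 and wild-type CDDO-Me mouse 1, 2, 3, or 4) and 4 genes without C151S CDDO-Me mouse 1. Without C151S CDDO-Me mouse 5, 1 gene passed, Sec24d, which was lower.

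Between Nrf2-knockout and wild-type mice after CDDO-Me 7 of the 34 genes passed, 6 lower and 1 higher. Of all 13935 genes 9.44% passed, 4.85% lower and 4.59% higher. Atf4 had 79.9, 65.2, 54.8, 68.7, and 61.0 CPM in treated knockout mice, below all 5 treated wild-type mice, at -0.94 ± 0.11 (FDR = 0.000225), and this call held in all 19 alternatives. Hyou1 was at -1.04 ± 0.20 (FDR = 0.00555), also without overlap. Creld2 (-0.82 ± 0.23), Manf (-0.75 ± 0.18), Hspa5 (-0.65 ± 0.17), and Dnajb9 (-0.62 ± 0.17) were lower as well, and these calls held in 9, 17, 12, and 10 of 19 alternatives. Chac1 was higher and is described below. Among the markers, Jchain (1.73), Igkc (1.64), Cela2a (1.82), and Pecam1 (0.57) were higher and Marco (-2.14) was lower. The 5 tested markers of B and plasma cells had a median of -0.11, the 5 of endothelial cells 0.32, and the 6 of Kupffer cells 0.02. Cela2a was the only acinar marker tested. Leaving out 1 mouse gave 3 to 7 genes, with 3 (Hyou1, Manf, and Atf4) without Nrf2-knockout CDDO-Me mouse 1 or wild-type CDDO-Me mouse 1 or 2. With high-Arntl libraries alone, 2 knockout and 5 wild-type mice, 3 passed as well, namely Chac1, Derl2, and Atf4, where 7.49% of all genes passed. Between treated C151S and Nrf2-knockout mice none of the 34 genes passed by edgeR, where 0.162% of 14186 genes did. There 5 had an unadjusted p under 0.05, a larger share than the 7.82% of all genes, and DESeq2 called 1, Ddit3, and 0.832% of all genes. Ddit3 had every C151S mouse above every knockout mouse, at 1.01 ± 0.26 (FDR = 0.28). In the low-Arntl libraries alone, 3 in each of these groups, Ddit3 and Herpud1 passed, against 0.646% of all genes.

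In the ATF4 and CHOP arm none of the 5 genes passed between a mutant and wild type with vehicle, whereas Atf4 itself was lower in both, as given above. Ddit3, which encodes CHOP, had 4.08, 4.32, 3.51, 3.55, and 4.06 CPM in vehicle-treated and 3.29, 3.14, 2.86, 4.16, and 4.76 CPM in CDDO-Me-treated wild-type mice. In C151S mice it had 2.55, 3.17, 2.53, 5.43, and 3.91 CPM with vehicle and 4.84, 4.63, 6.81, 6.50, and 9.70 CPM after CDDO-Me. Nrf2-knockout mice had 4.23, 4.09, 2.69, 5.25, and 3.54 CPM with vehicle and 2.71, 4.06, 2.23, 2.47, and 4.57 CPM after CDDO-Me. Treated C151S mouse 5 had the highest value of all 30 mice, and with vehicle the log2 fold changes were -0.14 ± 0.20 and 0.04 ± 0.17.

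Chac1 had 2.42, 1.89, 2.07, 2.39, and 3.95 CPM in vehicle-treated and 1.72, 2.22, 1.62, 2.78, and 2.95 CPM in CDDO-Me-treated wild-type mice. In C151S mice it had 1.65, 3.26, 1.79, 6.34, and 3.28 CPM with vehicle and 5.79, 7.55, 4.17, 2.34, and 2.56 CPM after CDDO-Me. Nrf2-knockout mice had 3.66, 5.90, 3.76, 2.11, and 3.23 CPM with vehicle and 7.60, 11.2, 3.59, 3.65, and 2.98 CPM after CDDO-Me. Every treated knockout mouse was above every treated wild-type mouse, at 1.37 ± 0.36 (FDR = 0.027), and mice 1 and 2 were the highest. Trib3, a pseudokinase induced by CHOP and ATF4, had 5.97, 9.12, 8.16, 15.9, and 11.7 CPM in vehicle-treated wild-type mice and 7.24, 6.45, 9.38, 14.5, and 14.9 CPM after CDDO-Me. C151S mice had 8.72, 12.5, 5.66, 7.22, and 8.97 CPM with vehicle and 6.64, 12.2, 6.27, 8.67, and 9.32 CPM after CDDO-Me. Nrf2-knockout mice had 24.0, 15.0, 9.06, 9.01, and 7.34 CPM with vehicle and 9.59, 7.50, 10.8, 4.97, and 5.93 CPM after CDDO-Me. All groups overlapped, and the largest log2 fold change of the 9 pairwise comparisons, -0.74 ± 0.32 for CDDO-Me in Nrf2-knockout mice, did not pass (FDR = 0.614).

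Asns, the asparagine synthetase and a standard ATF4 target, varied widely between mice of 1 group. It had 2.37, 35.8, 5.38, 4.93, and 1.77 CPM in vehicle-treated and 14.0, 7.74, 4.37, 2.32, and 26.2 CPM in CDDO-Me-treated wild-type mice. C151S mice had 8.69, 7.24, 15.5, 2.99, and 19.3 CPM with vehicle and 13.8, 22.8, 5.18, 19.5, and 16.8 CPM after CDDO-Me. Nrf2-knockout mice had 2.06, 4.40, 5.26, 5.08, and 2.05 CPM with vehicle and 8.40, 34.3, 6.39, 1.35, and 5.16 CPM after CDDO-Me. Mouse 2 stood far above the other 4 in vehicle-treated wild-type mice and in CDDO-Me-treated Nrf2-knockout mice. Against wild type with vehicle its log2 fold changes were 0.11 ± 0.76 and -1.39 ± 0.73, and it passed in none of the comparisons by edgeR. Ppp1r15a (GADD34), the phosphatase subunit that reverses eIF2α phosphorylation, likewise passed in none, with values between -0.56 (Nrf2-knockout over wild-type mice after CDDO-Me) and 0.47 (C151S over Nrf2-knockout mice with vehicle).

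Herpud1, the degradation gene with positive values against wild type in all 4 comparisons, had 274, 326, 338, 390, and 519 CPM in vehicle-treated and 231, 222, 245, 308, and 513 CPM in CDDO-Me-treated wild-type mice. In C151S mice it had 341, 460.3, 348, 692, and 711 CPM with vehicle and 323, 563, 787, 809.9, and 1032 CPM after CDDO-Me. Nrf2-knockout mice had 507, 601, 419.5, 528, and 209.6 CPM with vehicle and 403, 405, 482, 483, and 388 CPM after CDDO-Me. In C151S mice the 5 libraries on the low side of the Arntl gap had 692 to 1032 CPM and the 5 on the high side 323 to 563 CPM, without overlap across both treatments. In Nrf2-knockout mice the 6 low and 4 high libraries overlapped (403 to 601 and 210 to 528 CPM). Other members also parted by side in vehicle-treated C151S mice, but overlapped across both treatments. Hspa5 had 596 to 719 CPM on the low side and 404 to 544 CPM on the high side, and Creld2 17.4 to 31.8 and 10.5 to 14.7 CPM. Pdia4 went the other way, with 137 to 143 CPM on the low side and 162 to 194 CPM on the high side. With the Arntl side as a covariate the difference of treated C151S mice from wild-type mice was 0.58 for Herpud1 and 0.41 for Ddit3, and neither passed (FDR of edgeR 0.363 and 0.367). The gene that passed in that fit, and in the high-Arntl libraries alone, was Chac1, where 2.77% and 2.03% of all genes passed. The latter fit held 2 C151S and 5 wild-type mice.

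**Figure D5:**
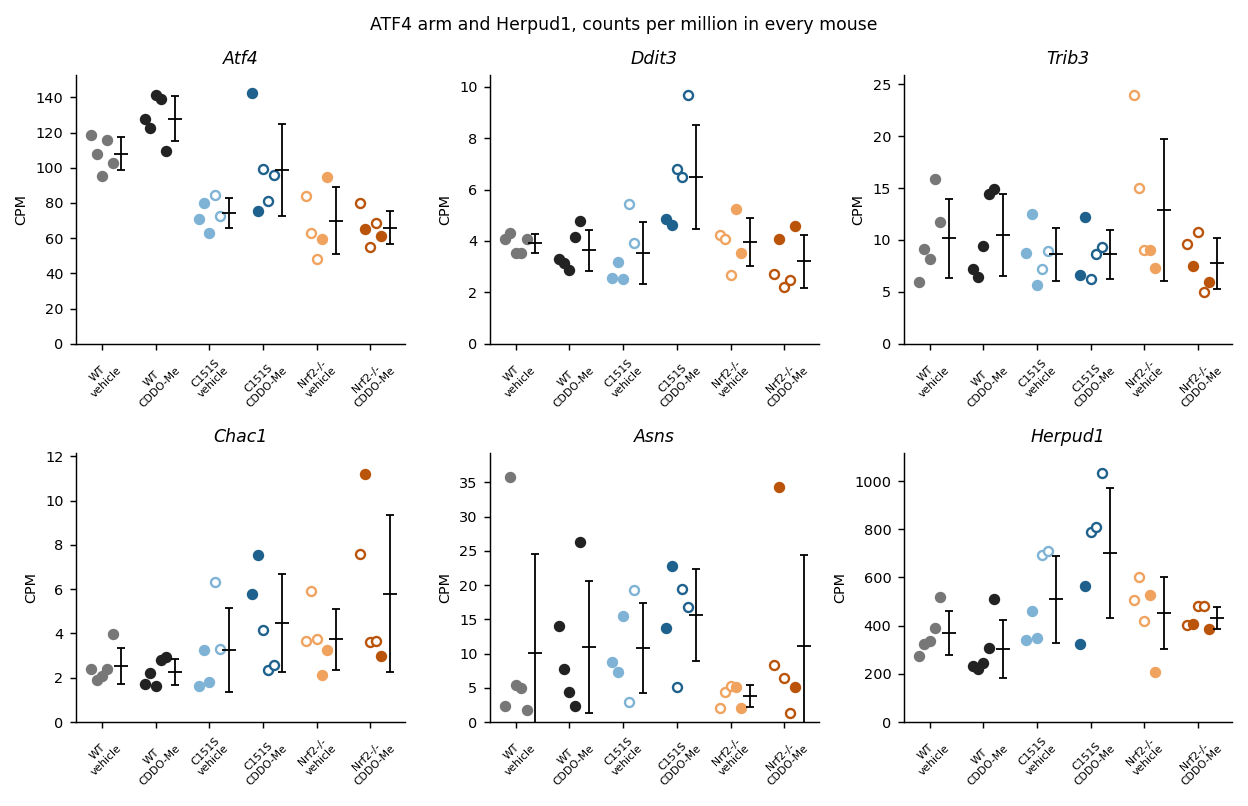
Normalized counts (CPM; vertical axes, from 0) of Atf4, 4 genes of its arm, and Herpud1 in each of the 30 mice, by genotype and treatment on the horizontal axis; open points are libraries on the low side of the Arntl gap, and black bars are the mean ± SD of 5 mice. Asns mouse 2 stands at 35.8 CPM in vehicle-treated wild-type mice, and the open points of Herpud1 in C151S mice, 692 to 1032 CPM, all lie above the filled ones.

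Other genes of the same pathways, from lists of 26 to 44 that hold no member, were counted next. Of 36 further folding and degradation genes tested, 5 passed in vehicle-treated C151S mice, all lower, and 7 in Nrf2-knockout mice, all lower, where 2.25% and 4.13% of all genes passed and were lower. Led by lowest p, these were Ubxn4 (-0.67), Ero1lb (-1.16), and Uggt1 (-0.70) in C151S mice, and Ero1lb (-1.18), Ubxn4 (-0.72), and Uggt1 (-0.60) in Nrf2-knockout mice. Ero1lb encodes an oxidase that recharges disulfide isomerases, and Uggt1 the sensor that returns misfolded glycoproteins to the lectin chaperones. Of 44 genes of the translocon, glycosylation, and COPII, 4 passed and were lower in C151S mice, the 3 leading being Sec61g, Sec23b, and Ostc. In Nrf2-knockout mice 10 did, led by Ssr1, Ssr3, and Spcs3, against the same shares of all genes. The medians of these lists were -0.23 and -0.32 in C151S mice, and those in Nrf2-knockout mice were -0.24 and -0.29.

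Of 39 further ATF4 and amino acid genes, 2 passed in C151S mice with vehicle, Vldlr higher at 1.52 and Aars lower at -0.74, close to the 4.84% of all genes that passed. In Nrf2-knockout mice 4 passed, with Vldlr (1.24) and Pck2 (0.72) higher and Aars (-0.63) and Tars (-0.72) lower, a share close to the 10.4% of all genes that passed. Among 25 further sensors and regulators, Atf6b (-0.74) and Wfs1 (-0.77) passed and were lower in C151S mice, where 2.25% of all genes did. None passed in Nrf2-knockout mice, where 10.4% of all genes did. CDDO-Me in wild-type mice raised 2 genes of the ATF4 list, the glycine transporter Slc6a9 at 0.69 ± 0.09 (FDR = 0.000586) and the hormone Fgf21 at 1.85 ± 0.41 (FDR = 0.024), and none of the other 3 lists, where 1.66% of all genes passed and were higher. In both mutants no gene of these lists passed with CDDO-Me. After CDDO-Me, 2 folding genes (Dnajb14 and Ero1lb) and 2 ATF4 genes (Iars and Tars) passed and were lower in C151S than in wild-type mice. Of all genes 2.8% did. In Nrf2-knockout mice 3 folding genes passed and were lower (Ubxn4, Dnajb14, and Ero1lb), as did Mia3 of the secretory list. Of the ATF4 list Slc6a9 and Tars passed as lower and Pck2 and Vldlr as higher. Of all genes 4.85% passed and were lower, and 4.59% passed and were higher.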

How the data were processed

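RNA from 30 livers was sequenced as stranded poly(A) libraries (paired reads of 50 bases). Per the labels and the methods, the authors assessed reads with fastp, removing none, aligned them to mm10 with STAR 2.7.7, and deposited second-strand counts per gene of GENCODE M23. The study used edgeR 3.36.0 with isolation dates in the design, which the labels do not give and which were not used here. The 4 STAR summary lines, 19.4% to 34.1% of all counts, were left out. The 35 rows mapped to the 34 genes by symbol include 1 Ddit3 row at 0 in all libraries, which was dropped.

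Each pair of groups (10 libraries) was fitted with edgeR 4.0.16 (filterByExpr, TMM, quasi-likelihood F test, Benjamini-Hochberg over all genes tested). A gene passed at an FDR under 0.05 if its log2 fold change was 0.5 or more in size. The 2 contrasts of responses came from 1 fit of all 30 libraries, at an FDR under 0.05. SEs were the log2 fold change divided by the root of F. RPKM is CPM per kilobase of summed exons. The test was checked on simulated counts. DESeq2 1.42.0, other scalings, filters, and fits, Arntl sides, and leaving out each mouse were alternatives. Replicate numbers were not used to pair the mice, except as an alternative.

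The members and lists were chosen with earlier results of these data known. Values per mouse are given for the 12 members with the lowest p among those that passed in any comparison and for Xbp1, Ddit3, Trib3, Chac1, Asns, and Herpud1, and, for other lists, at most 3 genes per direction. Marker lists covered hepatocytes, Kupffer, B and plasma, endothelial, stellate, acinar cells, and cholangiocytes. Of 42 listed ATF4 genes, 41 matched a symbol.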

Additional observations from a re-analysis of the deposited data

Results flagged for a closer look

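Among 108 pairs of member and group (18 members with values per mouse, 6 groups of 5 mice), 7 had 1 mouse whose gap to the next was over 0.71 of the range of the group, Dixon's limit for 5 values, which chance passes in about 1 of 20 groups. In each the mouse was the highest of its group. Asns was at 35.8 CPM in vehicle-treated wild-type mouse 2, where the next mouse had 5.38 CPM. It was at 34.3 CPM in CDDO-Me-treated Nrf2-knockout mouse 2 (next 8.40 CPM). Derl3 was at 51.2 CPM in CDDO-Me-treated C151S mouse 1 (next 14.5 CPM), at 12.6 CPM in CDDO-Me-treated wild-type mouse 2 (next 6.21 CPM), and at 2.65 CPM in vehicle-treated Nrf2-knockout mouse 2 (next 1.19 CPM). Creld2 was at 33.8 CPM in that same knockout mouse (next 20.5 CPM). Chac1 was at 3.95 CPM in vehicle-treated wild-type mouse 5 (next 2.42 CPM).

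The response to CDDO-Me differed between wild-type and C151S mice for Derl3 by -4.59 and for Creld2 by -2.29 log2 units in the test of the difference itself (edgeR, FDR = 0.0257 and 0.0249). Neither passed in 6 of the 20 fits that leave out 1 mouse.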

How the results depend on the processing

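No member that passed changed sign under any alternative. Counts of members that passed kept within 1.5 times in both vehicle comparisons with wild type, at 14 to 20 in C151S and 12 to 22 in Nrf2-knockout mice. By DESeq2, in place of 0, 2 members passed with CDDO-Me in wild-type mice, 4 in C151S mice, and 3 in Nrf2-knockout mice. It called 4 between C151S and wild-type mice after CDDO-Me in place of 2, 1 each between the mutants with vehicle and after CDDO-Me, and 5 in the difference of wild-type and C151S responses in place of 2. Without a filter on low counts 2 passed in treated wild-type mice. In 1 fit of all 30 libraries 2 passed with CDDO-Me in C151S mice and 1 between the treated mutants. With the Arntl side as a covariate 1 passed between C151S and wild-type mice after CDDO-Me and 4 (in place of 7) between Nrf2-knockout and wild-type mice. In the high-Arntl libraries alone these were 1 and 3, and 1 passed in the difference of responses. In the low-Arntl libraries alone, an alternative chosen after seeing the data, 2 passed between the treated mutants. The share of all genes that passed also changed with the setting. With CDDO-Me in C151S mice it was 0.092% by edgeR and 0.708% by DESeq2. Between vehicle-treated C151S and wild-type mice it was 4.84% in all libraries and 14.2% in the high-Arntl libraries alone. A change in the count of members is therefore not a result about the members alone. The cause of these changes was not tested.

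Leaving out each mouse gave 14 to 16 and 13 to 16 members in the vehicle comparisons of C151S and Nrf2-knockout with wild-type mice. It gave 0 to 4 and 3 to 7 after CDDO-Me, 0 to 1 with CDDO-Me in wild-type mice, 0 to 5 in the difference of wild-type and C151S responses, and 0 to 0 in the other comparisons. In no comparison did every same-numbered pair of mice deviate together (the lowest correlation of a pair was between -0.484 and -0.035 over 2000 genes). In C151S and wild-type mice after CDDO-Me same-numbered pairs had a mean of 0.245, with 4 over 0.1, and other pairs -0.063. With vehicle, C151S and Nrf2-knockout mice had -0.214 against 0.051. The numbers were not used as pairs in the main fits, and whether some mice share a batch was not tested. With a replicate block 2 members passed with CDDO-Me in wild-type mice, 15 and 16 in the vehicle comparisons, 3 and 6 after CDDO-Me, and 2 in the difference of responses. The shares of all genes with that block are not given here, so these counts cannot be set against them. Depth limits Derl3, Asns, and Chac1 most, which had the lowest counts.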

Other observations

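Outside the 34 genes, 28 genes had an ERSE in the promoter window. Of these, 10 were tested in vehicle-treated C151S mice, with a median log2 fold change of -0.07, and 2 passed, Acnat2, which was lower at -1.72 (FDR = 0.00104), and Spats2l, which was higher at 1.16 (FDR = 0.0168). In Nrf2-knockout mice 11 were tested, with a median of 0.26, and Spats2l alone passed, higher at 1.59 (FDR = 0.0131). The ERSE of Creld2 also lay in the window of Alg12, which encodes a mannosyltransferase of the ER and starts 328 bases away on the other strand, 220 to 202 bases before its start. Alg12 differed from wild type by -0.32 in C151S mice (FDR = 0.178) and by -0.09 in Nrf2-knockout mice (FDR = 0.65), where Creld2 differed by -2.41 and -2.13.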
